A study of Mus musculus with 2 samples.

Results

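Granzymes are serine proteases that killer lymphocytes store in granules and release onto a target cell, and perforin, the product of Prf1, forms the pores that let them in. The 10 genes described here are 9 granzyme genes (Gzma, Gzmb, Gzmc, Gzmd, Gzme, Gzmf, Gzmg, Gzmk and Gzmm) and Prf1, chosen by name out of 31053 genes in a matrix of single-cell counts from mouse tumours. Granzyme B cleaves after aspartate and activates caspases, granzyme A and granzyme K are tryptase-like, granzyme M cleaves after methionine or leucine, and granzyme C can kill cells with damage to mitochondria. Granzymes D, E, F and G are encoded beside granzymes B and C in the mouse and their substrates are less well known. Natural killer (NK) cells and CD8 T cells are the classical sources of all of them.

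The study is titled for inhibitors of ACSS2, the enzyme that makes acetyl-CoA from acetate, in triple negative breast cancer. Cells of 6 tumour samples, 3 given vehicle and 3 given an ACSS2 inhibitor (ACSS2i), were marked with antibody tags and run together on 1 lane of a droplet platform, with between 4000 and 6000 live cells taken per sample. All samples share the strain entry "NGS mouse", which the labels do not explain, and no dose, age or time is given. The series' design text names Bmal1 status, which no label of the pool gives. The 6 tags are called U2, U3, U4, D0, D1 and D4. The arm of a tag is given nowhere in the labels or files, so vehicle and inhibitor were not compared. The 6 tags are treated below as 6 samples in no group, the whole pool is 1 sample, and no test across conditions was possible. Intervals are exact 95% intervals and cover counting error only.

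The matrix held 9747 barcodes, of which 8784 had at least 500 genes and under 15% mitochondrial counts, and 7919 of those were not tag doublets. Counts are of unique molecular identifiers (UMIs). The classes were formed by marker counts and not by clustering. NK barcodes (113) had a UMI of Ncr1 or Klrb1c and none of Cd3d, Cd3e or Cd3g. CD8 T barcodes (302) had 2 or more UMIs of the Cd3 genes and a UMI of Cd8a or Cd8b1, and CD8-negative T barcodes (399) had the first and not the second. Macrophage barcodes (357) had 3 or more UMIs of C1qa, C1qb and C1qc, and tumour barcodes (5212) had 3 or more of Krt8 and Krt18 and none of Ptprc. Barcodes that met more than 1 rule, or an immune rule with 3 or more Krt8 and Krt18 UMIs, were left out as mixed, and these numbered 14 of 155 in the NK class. The classes hold 428132 UMIs in NK, 633065 in CD8 T, 778214 in CD8-negative T, 1628085 in macrophage and 139545308 in tumour barcodes. Median UMIs per barcode were 3291, 1757, 1492, 4120 and 25137.5, so shares of barcodes with a UMI are compared after each barcode was thinned to 1000 UMIs.

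The NK label was set against 9 NK markers that its rule did not use. All 9 were seen in NK barcodes with a summed level of 8745 CPM (UMIs per 1000000 gene UMIs of the class), against 1303 in CD8 T barcodes. Macrophage barcodes reached 5244 CPM on 6 of the 9, with Klra8, Eomes and Itga2 at 0, and their Tyrobp, which macrophages also express, was at 98.3% of the NK level. Fcer1g was at 2934 CPM in macrophage and 2593 in NK barcodes. Fcer1g, Tyrobp (2322 CPM) and Xcl1 (1820 CPM) were the largest parts of the NK sum, and Itga2 was the smallest, at 14.0 CPM on 6 UMIs. In NK barcodes Cd8a, Cd8b1 and Cd4 were at 0, and Ptprc was seen in 96.5% of NK barcodes. Other T cell genes were not at 0 in NK barcodes. Trbc2 was at 315 CPM, against 1123 in CD8 T barcodes, and Cd28 at 149, against 221. Of 6 mast cell and basophil markers, whose cells store related proteases, Mcpt4, Mcpt8, Fcer1a and Ms4a2 were at 0 in NK barcodes and the list summed to 9.34 CPM. CD8-negative T barcodes are not a single type: Cd4 was seen in 73 of them and Foxp3, the factor of regulatory T cells, in 59, and a CD8 T cell whose Cd8a and Cd8b1 transcripts were missed would fall here too.

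Position and sequence set the members apart in groups. In GENCODE M21 (GRCm38), Gzme, Gzmd, Gzmg, Gzmf, Gzmc and Gzmb lie in that order on the minus strand of chromosome 14, from chr14:56117626 to chr14:56262260, a span of 144635 bp that also holds Gzmn. Gzma (chr13:113093825-113100981) and Gzmk (chr13:113171608-113225908) are neighbours on chromosome 13, 70626 bp apart. Gzmm (chr10:79689020-79695261) and Prf1 (chr10:61297833-61304680) lie far from each other on chromosome 10. The coding sequences of Gzmd, Gzme, Gzmf and Gzmg were 83.7% to 93.3% identical to each other, Gzmc to Gzmg pairs 71.6% to 93.3%, Gzmb against Gzmc to Gzmg 65.4% to 76.3%, and the other pairs of members 30.2% to 55.4%. Such copies could share reads. In the last 400 transcript bases, where a 3′ library is read, none of 311 windows of 90 bases in any member was identical to one of another gene. At 50 bases, 13.1% of windows were shared for Gzmd, 9.97% for Gzme, 9.12% for Gzmf and 17.9% for Gzmg, and 0 for the other members, so values of these 4 genes are less certain than the rest if the reads were short. The read length is not stated in the labels or files used. Gzmn, which shares 15.4% of its windows with them, had 1 UMI in NK barcodes.

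The sequences upstream of the start sites also group Gzmc to Gzmg, but without Gzmb, and are shown for the genes of 1 locus whose detection is compared below. Over 250 upstream bases, Gzmc to Gzmg pairs were 70.2% to 94.8% identical. Gzmb against them was at 44.1% to 47.5%, within the range of the other pairs of members, 42.5% to 50.4%. The 200 bases before each RefSeq start (GRCm38.p6, minus strand, 5′ to 3′) follow, with matches to 3 motifs in capitals: the CRE letters TGACGTCA (bound by ATF and CREB proteins), the Runx letters AACCACA or their reverse complement, and the AP-1 letters TGANTCA.
Gzmc, chr14:56234658-56234857: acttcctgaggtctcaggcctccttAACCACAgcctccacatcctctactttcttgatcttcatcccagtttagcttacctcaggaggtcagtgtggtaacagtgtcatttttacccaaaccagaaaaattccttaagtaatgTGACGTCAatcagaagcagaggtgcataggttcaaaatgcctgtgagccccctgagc
Gzmf, chr14:56211408-56211607: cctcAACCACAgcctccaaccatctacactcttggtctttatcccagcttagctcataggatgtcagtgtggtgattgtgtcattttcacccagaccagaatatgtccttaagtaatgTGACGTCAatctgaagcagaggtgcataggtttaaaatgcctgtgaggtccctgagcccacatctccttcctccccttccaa
Gzmg, chr14:56159580-56159779: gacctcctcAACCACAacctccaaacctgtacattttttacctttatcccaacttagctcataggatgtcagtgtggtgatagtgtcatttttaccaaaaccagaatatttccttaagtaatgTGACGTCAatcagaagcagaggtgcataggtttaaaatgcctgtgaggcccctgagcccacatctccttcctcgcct
Gzmd, chr14:56132594-56132793: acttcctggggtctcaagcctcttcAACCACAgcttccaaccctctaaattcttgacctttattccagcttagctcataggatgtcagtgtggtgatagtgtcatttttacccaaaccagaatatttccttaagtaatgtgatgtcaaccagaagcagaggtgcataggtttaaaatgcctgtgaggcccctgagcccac
Gzme, chr14:56120626-56120825: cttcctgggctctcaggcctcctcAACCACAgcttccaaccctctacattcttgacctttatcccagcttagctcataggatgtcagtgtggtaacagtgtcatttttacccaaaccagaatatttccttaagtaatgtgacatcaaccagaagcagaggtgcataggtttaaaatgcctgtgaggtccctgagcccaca
Gzmb, chr14:56262335-56262534: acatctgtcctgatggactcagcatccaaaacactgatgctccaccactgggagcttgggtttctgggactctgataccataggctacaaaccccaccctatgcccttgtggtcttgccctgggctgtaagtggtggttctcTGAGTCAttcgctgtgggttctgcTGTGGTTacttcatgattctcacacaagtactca

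The CRE letters began 57 bases before the start of Gzmc, 82 before that of Gzmf and 77 before that of Gzmg. Gzmd and Gzme hold the same stretch with 1 substitution each, at 61 and 62 bases before their starts: C4T in Gzmd and G5A in Gzme, counted from 1 at the 5′ base of TGACGTCA, with the motif's base first. Of 32851 RefSeq promoters, 1.55% hold these 8 letters on either strand in the 250 upstream bases. The Runx letters, found in 4.40% of all promoters, were in those of Gzma, Gzmb, Gzmc, Gzmd, Gzme, Gzmf and Gzmg. AP-1 letters, in 6.75% of all promoters, were in that of Gzmb, and the T-box letters GGTGTGA, in 3.33%, in that of Gzmk. The RefSeq start used for Gzmk lies 44943 bp downstream of its GENCODE start, inside the gene span given above. None of these motifs overlapped another in the sequences printed. A match is a description of letters only.

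NK barcodes held most of the members at levels far above every other class, and their largest granzyme transcript was that of Gzmc and not of Gzmb. Gzmc reached 15054 CPM (14688 to 15426; 6445 UMIs), followed by Gzmf at 4312 CPM (4117 to 4513). Gzmd at 2392 CPM and Gzmb at 2301 CPM had overlapping intervals, and Gzma at 1955 CPM (1825 to 2092) came next. Gzmg at 843 CPM, Gzme at 803 and Prf1 at 719 each overlapped their neighbour in this order. Gzmm was at 7.01 CPM on 3 UMIs, and Gzmk at 0 UMIs, which allows up to 7.01 CPM at 3 counts. Each transcript gives 1 count at its 3′ end, so these levels were not divided by length. The 10 members together made up 2.84% of all NK UMIs. These levels are without the 14 mixed barcodes. With mixed barcodes kept, Gzmc was at 9299 CPM, Gzmf at 2790, Gzmb at 1456, Gzmd at 1432 and Gzma at 1146, with Gzmc still first. In the median NK barcode the members made up 1.67%, and in the highest, a D0 barcode, 12.1% (1105 of 9130 UMIs).

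**Figure D1:**
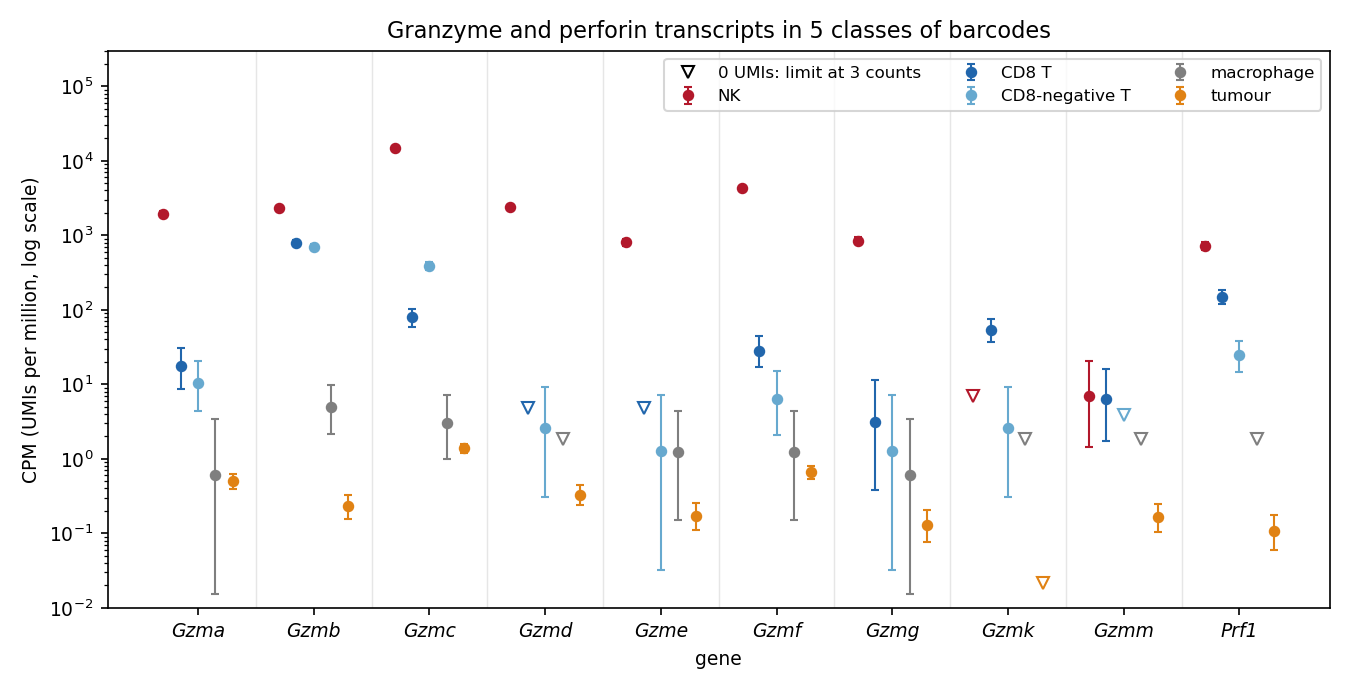
CPM of each member (log axis) in NK, CD8 T, CD8-negative T, macrophage and tumour barcodes of the pool. Points are pooled levels with exact Poisson 95% intervals, and open triangles mark classes with 0 UMIs at the limit that 3 counts give. NK barcodes are highest for Gzma to Gzmg and Prf1, CD8 T barcodes for Gzmk, and tumour barcodes lie below 2 CPM for all 10.

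In CD8 T barcodes the order was different, with Gzmb first at 795 CPM (727 to 867; 503 UMIs) and Prf1 second at 150 CPM (121 to 183). Gzmc followed at 79.0 CPM (58.6 to 104), overlapping Gzmk at 53.7 CPM (37.2 to 75.1; 34 UMIs in 24 barcodes). Gzmf stood at 28.4 CPM, but 13 of its 18 UMIs came from 1 barcode. Gzma had 11 UMIs (17.4 CPM), Gzmm 4 and Gzmg 2, and Gzmd and Gzme had none, which allows up to 4.74 CPM each. The 10 members made up 0.113% of CD8 T UMIs.

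CD8-negative T barcodes had Gzmb at 700 CPM (643 to 762; 545 UMIs), a level close to that of CD8 T barcodes, and less perforin, with Prf1 at 24.4 CPM (14.7 to 38.1). Gzmc was at 388 CPM (346 to 434), and its 302 UMIs were concentrated, with 81.8% of them in 5 barcodes. The remaining members had 8 UMIs or fewer each, and Gzmm had none.

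Macrophage and tumour barcodes show how much granzyme RNA appears in cells not known for making it, free RNA in the droplets included. The levels are per UMI, and T barcodes hold far fewer UMIs each than tumour barcodes. All 10 members together had 19 UMIs in 357 macrophage barcodes (11.7 CPM) and 513 in 5212 tumour barcodes (3.68 CPM). Of the 70 Gzma UMIs in tumour barcodes, 44 came from 1 barcode. Tumour levels of Gzma, Gzmb, Gzmc, Gzmd, Gzme, Gzmf, Gzmg and Prf1 were between 0.00919% (Gzmc) and 0.0257% (Gzma) of those in NK barcodes. Of 5 other NK genes, Nkg7 (0.0187%) and Xcl1 (0.0161%) fell in this range, Tyrobp (0.0500%) above it and Ncr1 (0.00164%, 1 UMI) below it, and Klrb1c had 0 tumour UMIs. Gzmm was the exception. Its 23 tumour UMIs, in 23 barcodes, gave 0.165 CPM, 2.35% (0.711 to 12.2) of the NK level, which itself rests on 3 UMIs.

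The classes were compared gene by gene with a rule of size, a ratio of CPM of at least 2 with at least 20 UMIs over both classes, without a test. Of 9 members with enough UMIs, 8 were higher in NK than in CD8 T barcodes, where 5.47% of all 5415 genes were, and 1, Gzmk, was higher in CD8 T barcodes, where 9.68% of all genes were. The ratio of NK to CD8 T was 2.90 (2.60 to 3.23) for Gzmb and 4.79 (3.80 to 6.10) for Prf1, the effectors that both classes use. Within tags the Gzmb levels in NK and CD8 T barcodes were 1756 and 1067 CPM in U2, 1835 and 1566 in D1, and 3667 and 871 in D0, so in U2 and D1 the difference was under 2-fold. Those of Prf1 were 649 and 189 in U2, 784 and 171 in D1, and 709 and 333 in D0. Tag U3, low in Gzmb, gave 107 of the 302 CD8 T barcodes and 3 NK barcodes. The pooled ratio was far larger for the others: 113 (62.6 to 226) for Gzma, 191 (144 to 257) for Gzmc, 152 (95.7 to 256) for Gzmf and 267 (73.4 to 2212) for Gzmg. With the CD8 T class, at 0 UMIs, entered at 3 counts, the ratio was 505 for Gzmd and 170 for Gzme. Ratios with a class at 0 UMIs carry no interval. Gzmk was 7.66-fold higher in CD8 T than in NK barcodes, with the NK class, at 0 UMIs, entered at 3 counts. This call rests on tag U2, which gave 24 of its 34 UMIs: without U2, 10 UMIs remained (26.4 CPM) and Gzmk was below the minimum. The same order of NK over CD8 T held in 3 of 3 tags with at least 20 barcodes of both classes (U2, D0 and D1) for Gzma to Gzmg and Prf1. The intervals were apart in all 3 tags for these genes, other than Gzmb and Gzmg (2 of 3 each). They cover counting error and not the spread between cells, and some rest on few barcodes. In U2, Gzmf had 34 UMIs from 2 NK barcodes and 16 from 4 CD8 T barcodes. Gzmg in U2 had 1 NK UMI against 0.

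Against CD8-negative T barcodes, 8 of 8 members with enough UMIs were higher in NK (background 5.13%), with ratios of 3.29 (2.96 to 3.65) for Gzmb, 29.5 (18.5 to 49.6) for Prf1 and 38.8 (34.6 to 43.7) for Gzmc, and larger ones for the rest.

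Between the T classes, 3 of 5 members with enough UMIs were higher in CD8 T barcodes (background 2.56%): Gzmk with a ratio of 20.9 (5.36 to 180), Prf1 with 6.15 (3.73 to 10.7) and Gzmf with 4.43 (1.58 to 15.2), the last through the 1 barcode named above. Without tag U2 only Prf1 of these still passed. Gzmc alone was higher in CD8-negative T barcodes, by 4.91 (3.63 to 6.77; background 7.24%). The ratio for Gzmb was 1.13 (1.003 to 1.28). Prf1 was higher in CD8 T barcodes in 4 of 4 tags, with intervals apart in 3, and Gzmb in 2 of 4, with intervals apart in 2 tags in each direction.

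Against tumour barcodes, 9 of 9 members with enough UMIs were higher in NK (background 17.4%). Gzmm is among them with only 3 NK UMIs. In macrophage barcodes 3 of 7 were higher (background 18.5%). These were Gzmb at 21.4 times the tumour level (8.53 to 47.5; 8 UMIs), Gzmc at 2.22 (0.713 to 5.27; 5 UMIs) and Gzme at 7.14 (0.818 to 28.8; 2 UMIs), so the intervals of the last 2 include 1. Of the 8 Gzmb UMIs, 7 were in tag D1 and 5 in 1 barcode, and without D1 the macrophage level was 1.21 CPM in place of 4.91.

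Counted per barcode, 103 of 111 NK barcodes held a member UMI at 1000 UMIs (92.8%, 86.3 to 96.8), 111 of 294 CD8 T (37.8%, 32.2 to 43.6) and 108 of 362 CD8-negative T barcodes (29.8%, 25.2 to 34.8). The shares in the classes taken as background were 1.71% of 351 macrophage and 0.269% of 5197 tumour barcodes. Unthinned, the shares were 98.2%, 48.7%, 35.6%, 4.202% and 7.37% in the same order. Thinning lowers the tumour shares most, since tumour barcodes are the deepest. Unthinned, Gzmf was seen in 1.69% of tumour, 1.99% of CD8 T and 1.25% of CD8-negative T barcodes. For Gzmb these shares were 0.460%, 32.1% and 27.8%, and for Gzmc 2.80%, 6.29% and 6.27%. The part of free RNA in the low values of T barcodes was not tested. The share that held 2 or more members was 73.9% in NK, 8.84% in CD8 T and 3.31% in CD8-negative T barcodes at 1000 UMIs. The CD8 T share was 4.79% without U2 and 13.8% without U3. In NK barcodes the single genes followed another order by share than by level. Gzmc was seen in 72.1% and Gzmb in 59.5%, Gzma and Prf1 in 39.6% each, and then Gzmd in 19.8%, Gzme in 14.4%, Gzmf in 13.5% and Gzmg in 7.21%. Gzmf is thus the second transcript by pooled level and the seventh by share. Its unthinned UMIs came from 17 barcodes, 5 of which gave 78.5%, and 1 of which alone held 503 of 1846. For Gzmg, 5 barcodes gave 95.3%. As a mean over single barcodes, in which each cell weighs the same, Gzmf was at 2187 CPM and Gzmd at 1370, and Gzma, with 3183 CPM, was second to Gzmc, with 11900.

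**Figure D2:**
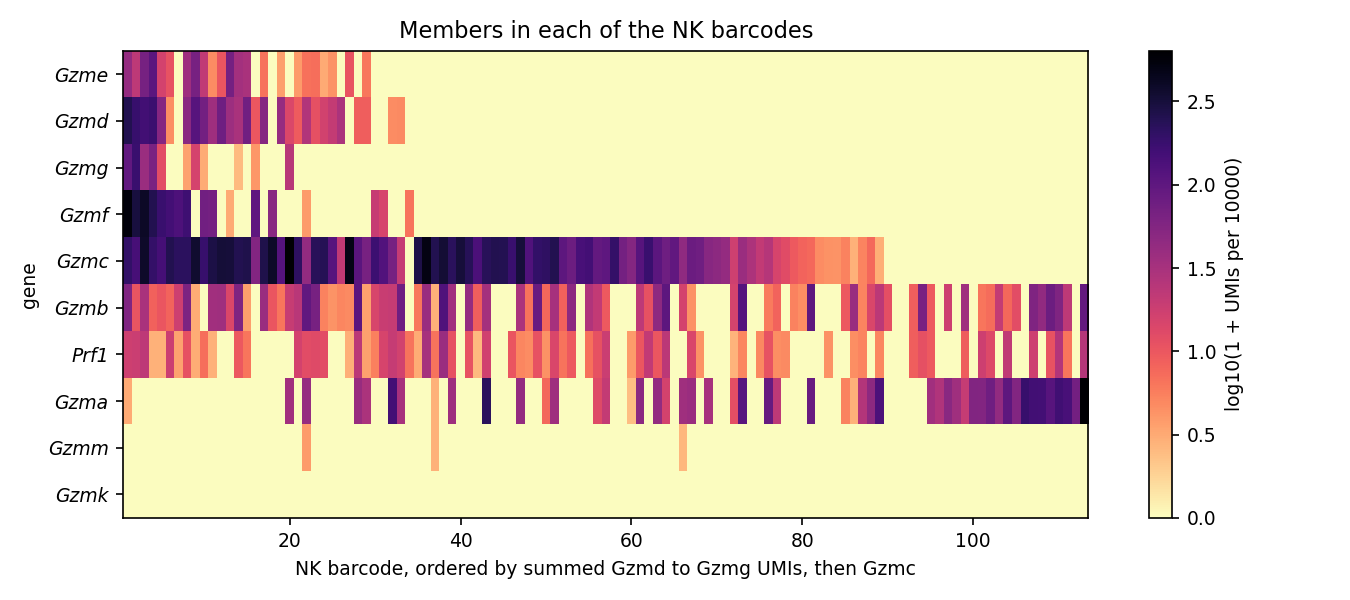
Each column is 1 of the 113 NK barcodes, ordered by summed Gzmd to Gzmg UMIs and then by Gzmc, and each row is a member. Colour is log10(1 + UMIs per 10000 of the barcode). Gzmd to Gzmg fill only the left end, inside the Gzmc-positive barcodes other than 1, and Gzma is scattered over the others. Barcodes equal in both keys are ordered by rising Gzma. The rise of Gzma towards the right end, where Gzmc is absent, thus comes from the ordering. The barcode with the most Gzma UMIs, 85, held 86 of Gzmc.

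The granzymes of the chromosome 14 locus were nested in NK barcodes. At 1000 UMIs, every barcode with Gzmd (22), Gzme (16), Gzmf (15) or Gzmg (8) also held Gzmc, and of 31 barcodes without Gzmc none held any of the 4 (exact interval up to 11.2%). All 8 Gzmg barcodes held Gzmd, and 14 of 16 Gzme barcodes did (87.5%, 61.7 to 98.4), against 8 of 95 barcodes without Gzme (8.42%, 3.71 to 15.9). Gzmf was looser, with Gzmd in 9 of 15 barcodes (exact interval 32.3% to 83.7%) against 13 of 96 without Gzmf (13.5%, 7.41 to 22.0). In the unthinned counts, 34 NK barcodes held a UMI of Gzmd, Gzme, Gzmf or Gzmg and 33 of them held Gzmc. Gzmb, the neighbour of Gzmc on the chromosome, did not follow: it was seen in 49 of 80 Gzmc barcodes (61.3%) and in 17 of 31 without Gzmc (54.8%).

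Gzma and Gzmd overlapped in few NK barcodes. Gzma was seen in 2 of 22 Gzmd barcodes (9.09%, 1.12 to 29.2) and in 42 of 89 others (47.2%, 36.5 to 58.1). Likewise, Gzmc was seen in 24 of 44 Gzma barcodes (54.5%, 38.8 to 69.6) and in 56 of 67 others (83.6%, 72.5 to 91.5). With Gzmb the direction was opposite: 35 of 44 Gzma barcodes held it (79.5%, 64.7 to 90.2), against 31 of 67 others (46.3%, 34.0 to 58.9). Perforin went with granzyme B, which was in 37 of 44 Prf1 barcodes (84.1%, 69.9 to 93.4) and in 29 of 67 others (43.3%, 31.2 to 56.0). Depth was not the same on both sides: the 34 unthinned barcodes with a Gzmd to Gzmg UMI had a median of 4629 UMIs and the other 79 had 3011. Gzma was seen in 7 of the 34 and in 44 of the 79. The part of depth in this was not tested.

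**Figure D3:**
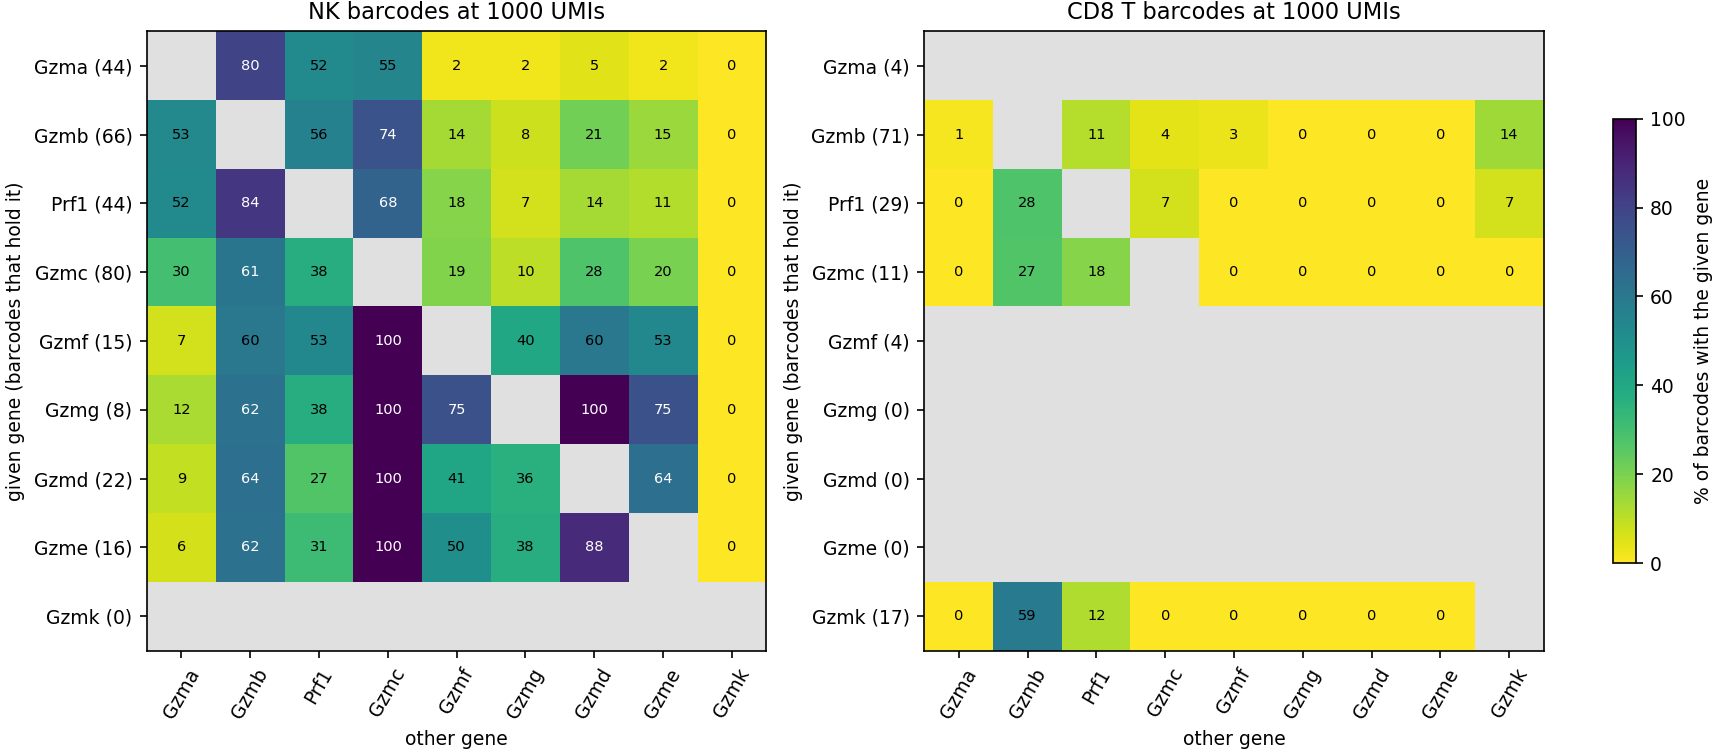
Percent of the barcodes holding the row gene (their number in brackets) that also hold the column gene, at 1000 UMIs, in NK and CD8 T barcodes. Rows with fewer than 5 barcodes, and each gene against itself, are grey. In NK barcodes the Gzmc column stands at 100% for Gzmd, Gzme, Gzmf and Gzmg, while their Gzma column lies between 6.25% and 12.5%.

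In CD8 T barcodes co-detection was rare. Gzmb was seen in 71 of 294 barcodes at 1000 UMIs (24.1%), Prf1 in 29 (9.86%), Gzmk in 17 (5.78%) and Gzmc in 11 (3.74%). Of the Gzmk barcodes, 10 of 17 held Gzmb (58.8%, 32.9 to 81.6), against 61 of 277 without Gzmk (22.0%, 17.3 to 27.4). Prf1 was seen in 8 of 71 Gzmb barcodes (11.3%, 4.99 to 21.0) and in 21 of 223 others (9.42%, 5.92 to 14.0), intervals that overlap. The same pair of genes was seen together far more often in NK barcodes, but there each gene was also higher. The largest number of members in 1 barcode at this depth was 7 in NK, 3 in CD8 T and 2 in CD8-negative T barcodes.

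NK barcodes were then split by whether a Gzmd to Gzmg UMI was seen at 1000 UMIs (29 with, 82 without), and genes of 10 lists of cytotoxic biology were compared. The members used for the split are not read. Granule genes did not separate the sides: none of 6 measured genes was 2-fold higher with Gzmd to Gzmg (background 2.68%), and 1, Ctsc, which encodes the protease that activates granzymes, was higher without (123 against 46.4 CPM; background 9.57%). Nkg7 stood at 1407 CPM with and 1488 without, and Srgn, the granule proteoglycan, at 1851 and 1800. Chemokines and cytokines did separate them: of 6 measured, Ccl5, Ifng and Ccl4 were higher without. Ccl5, which attracts T cells and other leukocytes, had 1 UMI with (6.64 CPM) and 289 without (1049 CPM). Ifng had 2 UMIs with (13.3 CPM) and 66 without (239 CPM), and Ccl4 0 and 35 (127 CPM). Xcl1, which attracts cross-presenting dendritic cells, was close on both sides, at 1712 and 1840 CPM.

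Also higher without were the transcription factors Tbx21 (65.3 against 19.9 CPM) and Tcf7 (79.8 against 26.5) and the interleukin 18 receptor genes Il18r1 (68.9 against 26.5) and Il18rap (68.9 against 33.2). UMIs with and without were 3 and 18 for Tbx21 and 4 and 22 for Tcf7. They were 4 and 19 for Il18r1 and 5 and 19 for Il18rap. The interval of the ratio, with over without, included 1 for Tbx21 (0.0575 to 1.04), Il18r1 (0.0953 to 1.16) and Il18rap (0.14 to 1.33). Eomes at 133 with and 152 without, Itga1 at 153 and 123, and the granzyme B inhibitor Serpinb9 at 557 and 573 did not pass the rule. Serpinb6a passed in the other direction, at 173 CPM with and 72.6 without. Serpina3g, of the same list, was higher without, at 156 against 46.4 CPM. Among the members not used in the split, Gzma was at 358 CPM with and 2783 without, Gzmc at 23935 and 10297, Gzmb at 2741 and 2072, and Prf1 at 829 and 664. The direction of the last 2 differed between tags. Gzmb was at 509 CPM with and 2222 without in U2, 3613 and 3774 in D0, and 2608 and 1323 in D1. Prf1 was at 274 and 789 in U2, 572 and 827 in D0, and 1130 and 555 in D1.

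For Ccl5, Ifng and Gzma the direction was the same within tags. Ccl5 was seen in none of 7 barcodes with Gzmd to Gzmg in U2 and in 6 of 22 without. In D0 the numbers were 1 of 7 and 7 of 17, and in D1 none of 12 and 4 of 27. Ifng was seen in none of 7 and 6 of 22 in U2, 1 of 7 and 5 of 17 in D0, and none of 12 and 5 of 27 in D1. Gzma was seen in none of 7 and 14 of 22 in U2, 3 of 7 and 11 of 17 in D0, and none of 12 and 13 of 27 in D1. The direction was the same in these 3 tags for the 3 genes, on few barcodes with Gzmd to Gzmg in each. U4 had no barcode with Gzmd to Gzmg, and in D4, with 2 barcodes on each side, Gzma was at 2611 CPM with and 2204 without. Split by Gzma instead (44 with, 67 without), the chemokine side was the reverse: Ccl5 stood at 2234 CPM with and 16.7 without, and Ifng at 376 and 66.95, both past the fold (background 4.40%). Tmem176a and Tmem176b, of the tissue-residency list, were higher without Gzma (background 6.49%). This split shares its barcodes with the one before and is no second sample.

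**Figure D4:**
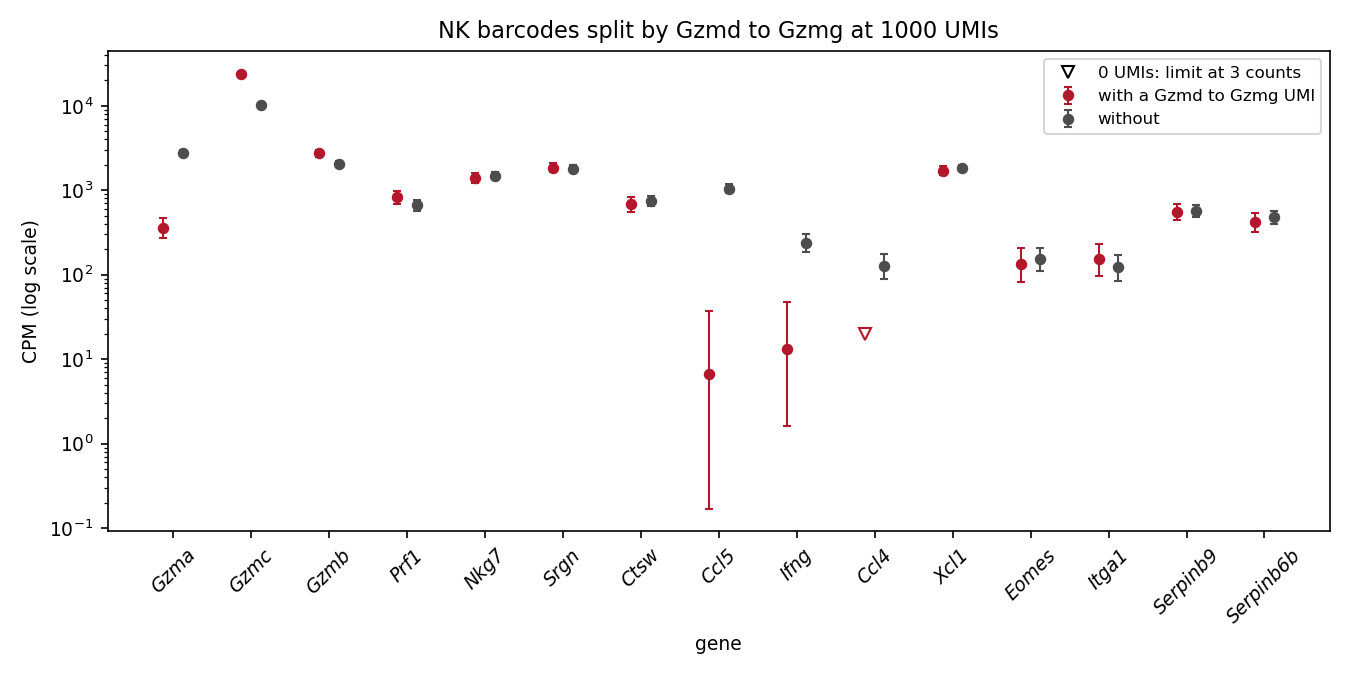
CPM (log axis) with exact Poisson 95% intervals in NK barcodes with (29) and without (82) a Gzmd to Gzmg UMI at 1000 UMIs. Triangles mark 0 UMIs at the limit of 3 counts. Granule genes and Xcl1 lie together, and Gzma, Ccl5, Ifng and Ccl4 lie lower with Gzmd to Gzmg.

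Set beside the members, the 10 lists had smaller median ratios of NK to CD8 T barcodes, or ratios in the other direction. Their counts are read against the same shares of all genes, 5.47% higher in NK and 9.68% higher in CD8 T barcodes. The median log2 ratio of NK to CD8 T was 7.24 over the 9 members measured and -0.07 over all 5415 genes. Over the 10 granule genes it was 0.55, with none higher in NK and Stx11, a syntaxin needed for granule release, higher in CD8 T barcodes (44.2 against 9.34 CPM). Nkg7 was at 1460 CPM in NK and 1660 in CD8 T barcodes, and Srgn at 1815 and 1082. Of 4 serpin genes measured, 2 were higher in NK: Serpinb9 (565 against 107 CPM) and Serpinb6b (472 against 93.2), with a list median of 1.54. Of 7 death ligand, cytokine and chemokine genes, Xcl1 was higher in NK (1820 against 535 CPM), and Ccl3 (297 against 18.7), Ccl4 (780 against 84.1) and Ccl5 (3344 against 712) in CD8 T barcodes.

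Among 6 transcription factor genes Eomes was higher in NK (145 against 36.3 CPM) and Tcf7 (164 against 60.7) and Zeb2 (120 against 39.7) in CD8 T barcodes. Of 7 cytokine receptor genes, Il2rb, the shared chain of the interleukin 2 and 15 receptors, was higher in NK (645 against 294), as was Il12rb2 (49.1 against 20.5), and Il7r in CD8 T (232 against 18.7). Of the 4 genes measured for granzyme substrates and uptake, only Igf2r, the mannose 6-phosphate receptor that can take up granzyme B, passed, higher in CD8 T (42.6 against 7.01). In the residency list Itga1, Tmem176a and Tmem176b were higher in NK and Itgae and Cxcr6 in CD8 T barcodes (7 measured). Genes of circulating cells (3 of 4), inhibitory receptors (4 of 6) and naive T cells (6 of 8) were higher in CD8 T barcodes, with S1pr1 at 104 against 0 CPM, Pdcd1 at 215 against 28.0 and Lef1 at 163 against 21.0.

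Several of these list counts depended on tag U3, which was left out in a comparison chosen after seeing the data. Without its barcodes (background 4.38% higher in NK and 9.12% in CD8 T of 4813 genes) the genes higher in CD8 T barcodes were 3 of 7 naive T genes (Lef1, Il7r and Ccr7) and 1 of 3 genes of circulating cells (Cx3cr1). Lef1 was then at 43.8 CPM in CD8 T and 21.6 in NK barcodes, and Klf2 at 149.8 and 88.7. S1pr1 was at 25.3 and 0, and Tcf7 had the other order, at 53.0 CPM in CD8 T and 62.3 in NK barcodes. Il2rb, Il12rb2, Itga1, Itgae and Igf2r no longer passed, and Ifng in CD8 T and Stxbp2 in NK barcodes did. All 6 inhibitory receptor genes were higher in CD8 T barcodes, with Pdcd1 at 311 against 28.8 CPM. The members kept their counts, 8 higher in NK and 1 in CD8 T barcodes, with a median log2 ratio of 6.79.

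Across the 415 NK and CD8 T barcodes together, the genes whose levels (log of 1 plus UMIs per 10000) went most with summed Gzmc to Gzmg were Tyrobp (Pearson r 0.79), Fcer1g (0.73), Ifitm2 (0.58), Irf8 (0.57) and Car2 (0.56), out of 676 genes with at least 200 UMIs. Tyrobp and Fcer1g encode adaptors of NK receptors. Within the 113 NK barcodes alone, the highest were Ifitm2 (0.57) and Reep5 (0.47), and the lowest was Ccl5 (-0.68). Outside the members, Gzma had its highest value there with Ccl5 (0.53) and its lowest with S100a4 (-0.41), and with Gzmc it was at -0.48. Gzmb went most with Tnfrsf9 (0.43) among the genes outside the members, and with Prf1 at 0.54. In CD8 T barcodes alone Gzmb went most with Ccl5 (0.49), the gene that stood lowest against Gzmc to Gzmg in NK barcodes. Tag U3, low in Gzmb, gave 107 of these 302 CD8 T barcodes, and the value was not computed without it. For Gzmk no gene reached 0.25. These values describe cells of 1 pool that share a library and differ in depth.

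CD8 T barcodes were also described by single marker genes. With a UMI of Lef1, a factor of naive T cells (72 barcodes), Gzmb was at 223 CPM (30 UMIs), against 949 CPM without. This goes with 1 tag: 56 of the 72 carried U3, and without U3 the values were 778 and 1180 CPM. With Pdcd1 (85 barcodes), which encodes the checkpoint receptor PD-1, Gzmk was at 108 CPM against 28.0 without and Prf1 at 255 against 100, while Gzmb was at 761 and 811. Without U3 the values with and without Pdcd1 were 109 and 51.8 for Gzmk, 257 and 155 for Prf1, and 766 and 1477 for Gzmb. The direction for Prf1 differed between tags, at 180 CPM with and 200 without in U2, and 56.4 and 209 in D1. It was at 611 and 71.9 CPM in D0 and 793 and 0 in U4. In D0 and U4, 2 barcodes each held the Prf1 UMIs seen with Pdcd1. Of the 22 Gzmk UMIs with Pdcd1, 18 were in U2. With Mki67, a gene of dividing cells (44 barcodes, median 2835 UMIs against 1666), Gzmb was at 1192 CPM against 688. The Mki67 split was not computed within tags or without U3, the tag low in Gzmb.

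In CD8-negative T barcodes pooled over tags, Gzmb was higher with Foxp3, and Gzmb and Gzmc were both higher with NK receptor genes. Barcodes with Foxp3 (59) had Gzmb at 1345 CPM (1158 to 1553), against 562 (505 to 623) without, and 32 of 59 held it (54.2%) against 79 of 340 (23.2%). The level was higher with Foxp3 in U3, U4, D0, D1 and D4, and lower in U2 (508 against 571 CPM). Gzmb was held by 18 of 28 barcodes with Foxp3 and 30 of 71 without in D1, and by 6 of 7 and 13 of 33 in D0. In U2 the numbers were 3 of 9 and 20 of 85. The other tags had few barcodes with Foxp3. Gzmb was in 2 of 6 in U3 (7 UMIs) and 2 of 3 in D4 (7 UMIs). In U4 all 8 UMIs with Foxp3 came from 1 of 6 barcodes, and 8 of 37 without held Gzmb. Perforin did not follow, with Prf1 at 21.8 CPM with Foxp3 and 24.98 without, and Gzmc had 2 UMIs with Foxp3 (14.5 CPM) against 300 without (468). Gzmc lay mostly among the 21 barcodes that had a UMI of Ncr1 or Klrb1c besides Cd3. They held 253 of its 302 UMIs (5554 CPM, against 66.9 in the other 378), and these came from 7 of the 21. Gzmb in those 21 was at 1581 CPM against 646. Within tags Gzmb was higher with these genes in U2, U4 and D0. It was lower in D1 (597 against 1100 CPM, 4 barcodes with) and U3 (0 UMIs, 1 barcode with). Gzmc was higher with them in U2, D0 and D1. In U4 it had 0 UMIs in 4 barcodes with and 18 in 39 without. Barcodes with a constant gene of the gamma delta receptor (39) had Gzmc at 2245 CPM against 189. These were 169 of the 302 UMIs, from 7 barcodes, so part of them lay in the barcodes with Ncr1 or Klrb1c. The highest barcode of the class held 97 Gzmc UMIs. The part of unrecognised doublets of an NK and a T cell in this was not tested.

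Members also varied between tags. Gzmb in CD8 T barcodes was 30.1 CPM in U3 (6 UMIs, 107 barcodes), 871 in D0 (25 barcodes), 1067 in U2 (110) and 1566 in D1 (36). U3 lies apart from the other 3, with an interval of 11.1 to 65.6, and its Prf1 was also lowest, at 35.2 CPM against 189 in U2, 333 in D0 and 171 in D1. Gzmk had 0 UMIs in U3, which allows 15.1 CPM, 94.5 CPM in U2, 92.6 in D0 and 56.9 in D1. Median UMIs per CD8 T barcode were 1451 in U3 and between 1743.5 and 2016 in the other 3. Without U3, Gzmb in the class was 1145 CPM.

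In CD8-negative T barcodes, where all 6 tags had at least 20 barcodes, Gzmb was 111 CPM in U3, 360 in U4, 564 in U2, 707 in D4, 1074 in D1 and 2000 in D0. U3 was lowest here too, with an interval (68.9 to 170) below those of the other tags. Gzmc ranged from 0 in U3 through a median of 241 to 1849 CPM in D0, and the class was at 237 CPM without D0. Of the 135 Gzmc UMIs in D0, 128 were in 3 barcodes that also had Ncr1 or Klrb1c.

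Among NK barcodes 3 tags had at least 20. Gzmc was 13284 CPM in U2, 17286 in D1 and 16220 in D0, and Prf1 649, 784 and 709 in that order, with overlapping intervals for Prf1. Gzma was 2299 CPM in U2, 1641 in D1 and 2317 in D0. Summed Gzmd to Gzmg was at 1746 CPM in U2 (1489 to 2034), 10167 in D1 and 13925 in D0. The share of barcodes with these genes was closer, 8 of 29 in U2, 15 of 39 in D1 and 8 of 25 in D0, so the level within positive barcodes moved more than their share. The sum rests on few cells, since 5 barcodes gave 73.7% of it over the class.

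**Figure D5:**
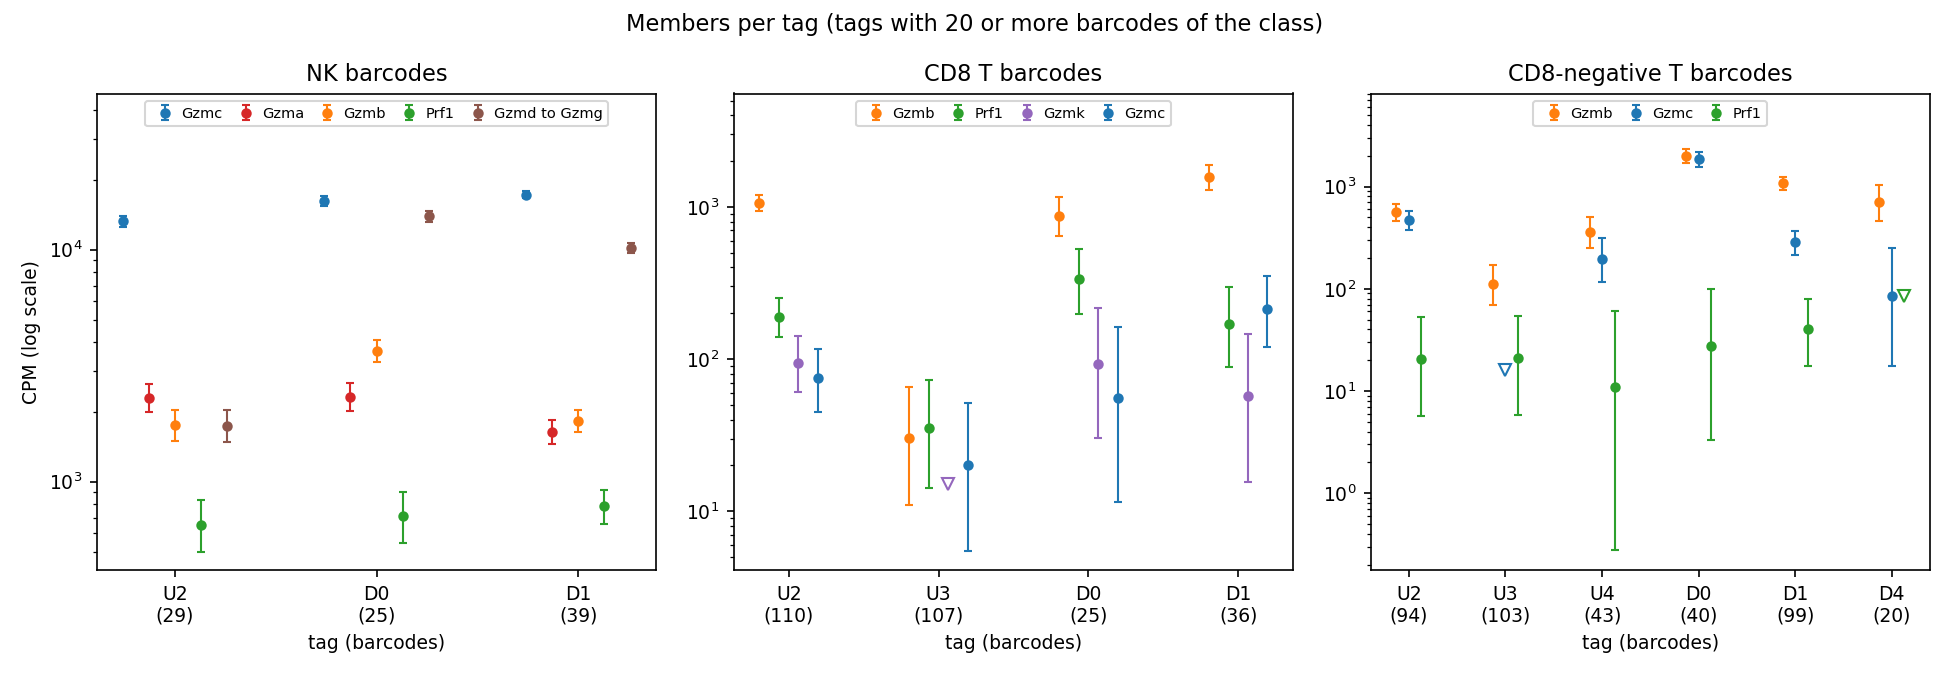
CPM (log axis) per tag with exact Poisson 95% intervals for tags with at least 20 barcodes of a class (number under each tag). Triangles mark 0 UMIs at the limit of 3 counts. U3 is lowest for Gzmb in both T classes, and summed Gzmd to Gzmg in NK barcodes is lowest in U2. The arms of the tags are not known.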

How the data were processed

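The authors' deposited matrix holds raw UMI counts per gene and barcode of 1 pooled library. Per the submitters' processing notes the reads went through Cell Ranger against mm10, and per the file headers software of version 3.1.0 wrote the matrix. Neither annotation nor read length is stated there. The gene, mitochondrial and class rules are those given above. Tags were assigned with HTODemux (Seurat 5.3.0, R 4.3.3, positive quantile 0.99, seed 42), and 865 tag doublets were removed. Doublets of cells with the same tag cannot be seen this way. UMIs were summed per class and divided by the class total times 1000000 (CPM), with exact Poisson intervals, exact conditional intervals for ratios and Clopper-Pearson intervals for shares (Python 3.11.15, scipy 1.17.1). A class at 0 entered a ratio at 3 UMIs. Barcodes were thinned to 1000 UMIs with seed 7, which left out 2 NK, 8 CD8 T, 37 CD8-negative T, 6 macrophage and 15 tumour barcodes. The call rule and the intervals were tested on simulated data. No sample has a known arm and a class is 1 pooled sample, so no p-value was computed.

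The members and lists were chosen with earlier results of these data known. Named genes were all 10 members, and from each of 10 lists the 2 with most UMIs in NK and CD8 T barcodes and those past the fold, up to 4. Further genes of the lists named for the NK split, the marker genes that split T barcodes and the promoters printed were chosen after values were seen. Likeness was ranked by Pearson r over NK and CD8 T barcodes together, and the genes named within 1 class were chosen after values were seen. Sequences and promoters come from RefSeq (GRCm38.p6, all 10 members matched), and positions, transcripts and coding sequences from GENCODE M21. Alternatives changed the gene and mitochondrial limits, the NK rule, the handling of doublets and mixed barcodes, the depth of thinning, the UMI minimum and the averaging, and left out each tag. List counts without U3 were added after seeing the data. A gene of the lists is not reported here.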

Additional observations from a re-analysis of the deposited data

Results flagged for a closer look

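Over 6 combinations of member and T or NK class with 4 or more tags and at least 20 UMIs, 1 tag stood apart by the gap to its nearest neighbour against the whole range. Chance gives this in about 1 of 20 such groups. Gzmc in CD8-negative T barcodes was at 1849 CPM in D0, and its gap to the next tag, U2 at 466 CPM, was 0.75 of the range over 6 tags. In the D0 barcodes 128 of 135 Gzmc UMIs came from 3 barcodes that also had Ncr1 or Klrb1c.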

How the results depend on the processing

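Of the recomputed counts and shares, 159 stayed within 1.5 times (counts) or within the main interval (shares) and 23 did not; of single levels, 552 stayed within the main interval and 98 did not. The 8 members higher in NK than in CD8 T barcodes remained 8 without each tag. With mixed barcodes kept, 6 members instead of 3 were higher in macrophage than in tumour barcodes, and Gzmc in NK barcodes fell to 9299 CPM and Gzma to 1146. With at least 1000 genes, 0 members were higher in CD8 T than in NK, 1 was higher in CD8 T than in CD8-negative T, and 44.4% of CD8 T barcodes held a member and 13.6% held 2 or more. Thinned to 500 UMIs, 28.8% and 3.64% of CD8 T, 23.3% of CD8-negative T and 0.560% of macrophage barcodes did. Thinned to 2000 UMIs, a member was held by 97.8% of NK, 54.3% of CD8 T, 36.5% of CD8-negative T and 0.543% of tumour barcodes, and 2 or more by 82.8% of NK and 20.7% of CD8 T barcodes. Shares move with depth by construction. Leaving out 1 tag at a time, members higher in CD8 T than in NK ranged from 0 to 1 (0 without U2) and in CD8 T than in CD8-negative T from 1 to 3 (1 without U2). The share of CD8 T barcodes with a member ranged from 27.7% (without U2) to 51.1% (without U3), with 2 or more from 4.79% to 13.8%, and of CD8-negative T barcodes from 23.9% (without D1) to 36.7% (without U3). The cause was not tested. No paired analysis was possible because the 2 deposited libraries are of the same pool and no tag has a known arm.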
